A study of Mus musculus with 8 samples.

Results

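The data describe 10 genes that act in the feedback or at the output of the ERK pathway, in mouse leukaemia cells that lose Cdc73: the phosphatases Dusp1, Dusp2, Dusp5 and Dusp6, the inhibitors Spry1, Spry2, Spred1 and Spred2, and the transcription factors Etv4 and Etv5. They were taken by gene symbol for their role, with earlier results of these data known. All 10 were found among the 23361 genes of the authors' deposited table. The study made 8 poly(A) RNA libraries from acute myeloid leukaemia lines of 129S6 mice, made from bone marrow cells with the MLL-AF9 fusion oncogene and kept as established lines. The floxed cells had the genotype Cdc73fl/fl CreERT2, and the wild type cells were Cdc73 +/+ CreERT2. Both lines carried the inducible recombinase, and both were given 7.5 nM 4-hydroxytamoxifen (4OHT) for 24 or 48 h, so that the 4 groups were floxed 24 h, floxed 48 h, wild type 24 h and wild type 48 h, with 2 biological duplicates in each. All groups grew in interleukin 3 and serum, and no group without 4OHT was analysed here. Differences between the lines other than the Cdc73 allele cannot be told apart from its loss.

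ERK is the last kinase of a chain that runs from cytokine and growth factor receptors through Ras, RAF and MEK. Active ERK raises the transcription of genes whose products shut the same chain down. The dual specificity phosphatases strip the activating phosphates from MAP kinases, while Sprouty and Spred proteins act further up, around Ras and RAF, and the ETS factors Etv4 and Etv5 are output genes induced by receptor tyrosine kinase signalling in many tissues. In myeloid cells interleukin 3, which these cultures received, feeds Ras through the common beta chain of its receptor.

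The table gave 1 FPKM value (fragments scaled to transcript length and library size) for each gene in each group, with the duplicates already combined, and for each time 1 q-value from the authors' own test of floxed against wild type cells. No spread between duplicates could therefore be computed, and the authors' q-value is the only test. A gene was called higher or lower where this q was under 0.05, and 11158 genes that reached 1 FPKM in any of the groups counted as expressed. Differences are floxed minus wild type on the log2(FPKM + 1) scale, where differences of weakly expressed genes come out too small, and folds are ratios of FPKM, given only where both groups reached 1 FPKM. Depth per library was unknown: in low genes no step of 1 read could be read from the FPKM values. Cdc73 itself, the targeted gene, stood at 5.96 FPKM in floxed cells against 26.2 FPKM in wild type cells at 24 h, and at 5.45 FPKM in floxed cells against 26.9 FPKM in wild type cells at 48 h, leaving 22.7% of the wild type level at 24 h and 20.3% at 48 h. All 8 markers listed for these leukaemia cells were expressed, with 3 higher and 2 lower calls at 24 h and 5 higher and 2 lower at 48 h. Since these are bulk libraries, fewer cells of a type and less RNA per cell cannot be told apart.

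The 10 genes did not move as a block. The lowest q-values in the authors' deposited table, 0.000449 at 24 h and 0.000165 at 48 h, were shared by 1328 and 3684 genes of the table, so they do not rank genes. At 24 h, 7 of the 10 were called, where 27.6% of all tested expressed genes were. Dusp1, Dusp2, Dusp6, Spry2 and Etv5 were higher (5 genes, against 13.4% of genes called higher), while Spred1 and Etv4 were lower (2 genes, against 14.2% called lower). The count at 24 h was 3 (Dusp1, Dusp2 and Etv4) with a q under 0.01, beside 18.2% of tested expressed genes, and 3 with at least 1.5-fold apart in FPKM, beside 14.8%. At 48 h, 9 of the 10 were called, beside 56.8% of tested expressed genes, and 8 under each of these stricter rules, beside 46.2% with a q under 0.01 and 43.5% with at least 1.5-fold apart. Dusp1, Dusp5, Dusp6 and Spry2 were then higher (4 genes, against 25.7% of genes called higher), and Spry1, Spred1, Spred2, Etv4 and Etv5 were lower (5 genes, against 31.0% called lower). All 10 passed the level of 1 FPKM and were tested at both times. The median difference of the 10 was 0.24 at 24 h and -0.34 at 48 h on the log2 scale, beside -0.01 and -0.06 over all expressed genes. These medians depended on the low genes: with a pseudocount of 5 they were 0.11 at 24 h and -0.11 at 48 h, and over the 7 genes of at least 5 FPKM, which leaves out Spry1, Etv4 and Etv5, 0.39 at 24 h and 0.46 at 48 h, with the sign at 48 h turned. The median size of a difference, sign aside, was 0.39 at 24 h and 0.81 at 48 h for the 10 genes, beside 0.21 and 0.47 for all expressed genes.

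**Figure D1:**
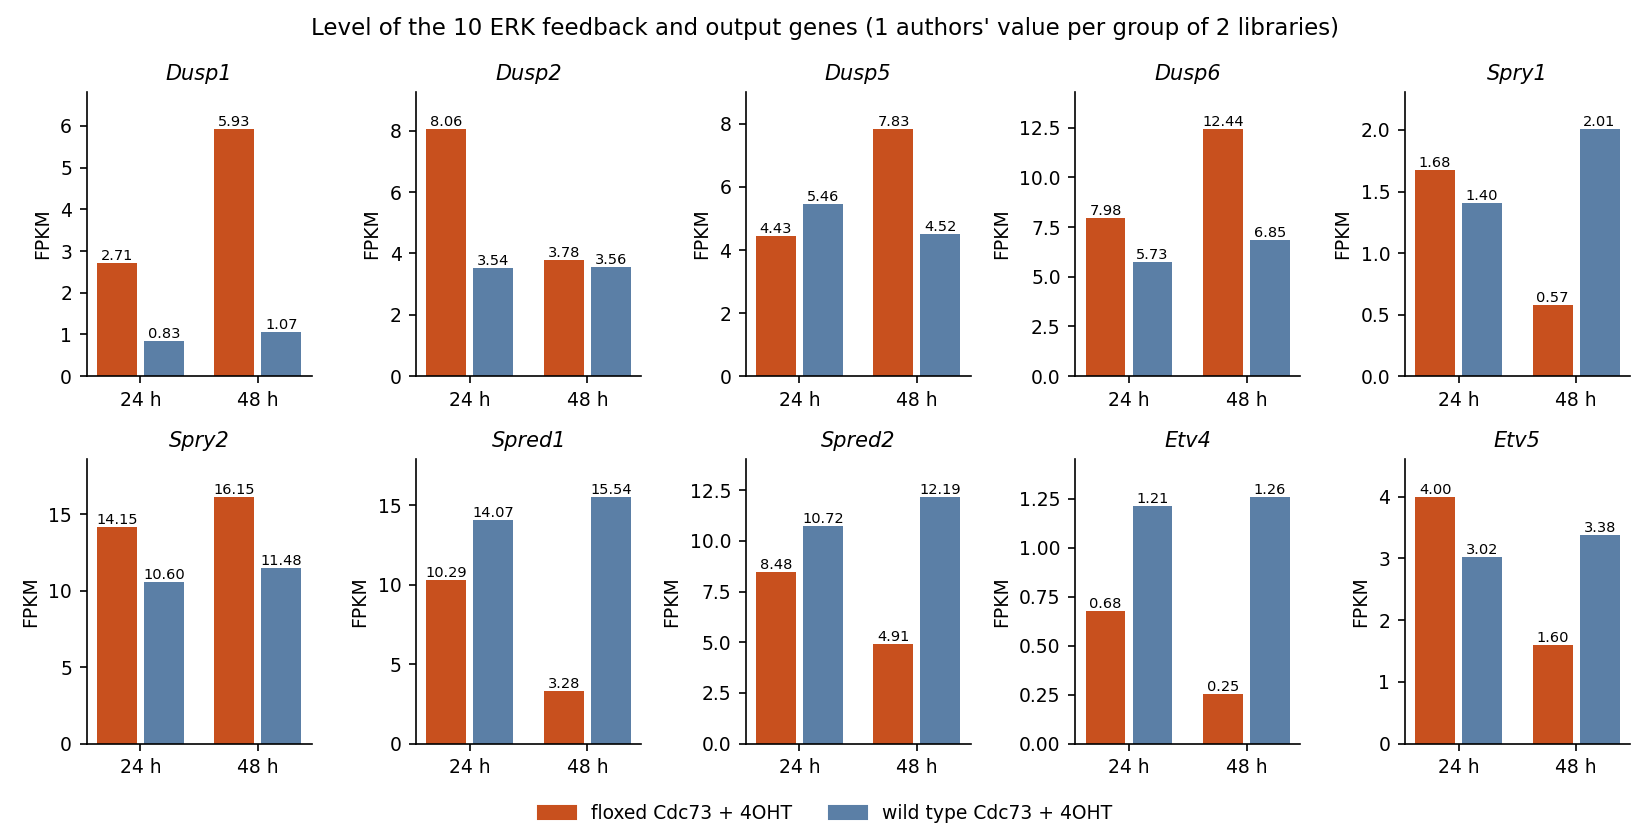
FPKM of each of the 10 genes in floxed cells (orange) and wild type cells (blue) after 24 and 48 h of 4OHT; each bar is the authors' single value for a group of 2 libraries, so no error bar can be drawn. The wild type bars differ between the times by at most 0.32 on the log2(FPKM + 1) scale (Spry1), while floxed Dusp1 reaches 5.93 FPKM and floxed Spred1 drops to 3.28 FPKM at 48 h.

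Among the phosphatases, the higher side prevailed at both times. Dusp1, Dusp2 and Dusp6 were called higher at 24 h, and Dusp1, Dusp5 and Dusp6 at 48 h, and none of the 4 was called lower. The median difference of the 4 genes was 0.71 at 24 h and 0.73 at 48 h.

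Dusp1 encodes a nuclear phosphatase of ERK, p38 and JNK and is an immediate early gene. It had 2.71 FPKM in floxed cells against 0.833 FPKM in wild type cells at 24 h, and 5.93 FPKM in floxed cells against 1.07 FPKM in wild type cells at 48 h. The floxed value was above both wild type values at each time and was the largest step upward among the 10 genes on the log2 scale. The log2 differences were 1.02 at 24 h (q = 0.000449 in the authors' deposited table) and 1.74 at 48 h (q = 0.000165), with a fold of 5.54 at 48 h. Its difference lay above that of 97.7% of expressed genes at 24 h and of 96.6% at 48 h. In wild type cells Dusp1 was the lowest of the 10 genes at both times, while in floxed cells at 48 h it ranked 4 of 10.

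Dusp2, the phosphatase also known as PAC1, is a nuclear enzyme best described in blood cells. Its level was 8.06 FPKM in floxed cells against 3.54 FPKM in wild type cells at 24 h, a fold of 2.27 (log2 difference 1.00, q = 0.000449 in the authors' deposited table). By 48 h it stood at 3.78 FPKM in floxed cells against 3.56 FPKM in wild type cells, a fold of 1.06 (q = 0.76 in the authors' deposited table). Of the 10 genes, Dusp2 was the only one called at 24 h and not at 48 h, and its floxed value at 48 h lay next to both wild type values.

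Dusp5, a nuclear phosphatase selective for ERK, showed the reverse order in time. At 24 h it had 4.43 FPKM in floxed cells and 5.46 FPKM in wild type cells, which did not pass (log2 difference -0.25, q = 0.254 in the authors' deposited table). After 48 h its level was 7.83 FPKM in floxed cells against 4.52 FPKM in wild type cells, a fold of 1.73 (log2 difference 0.68, q = 0.000992 in the authors' deposited table). Only the floxed 48 h group stood above the other 3.

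Dusp6, a cytoplasmic phosphatase selective for ERK, was called higher at both times. It had 7.98 FPKM in floxed cells against 5.73 FPKM in wild type cells at 24 h, a fold of 1.39 (q = 0.0147 in the authors' deposited table). It reached 12.4 FPKM in floxed cells against 6.85 FPKM in wild type cells at 48 h, a fold of 1.81 (q = 0.000165 in the authors' deposited table). Both floxed groups were above both wild type groups. It held a like share of the summed phosphatase level in the lines at 48 h, 41.5% in floxed cells and 42.8% in wild type cells, whereas Dusp1 held 19.8% in floxed cells and 6.69% in wild type cells.

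The promoters of the phosphatases called higher at 48 h are shown because these genes stood together at that time while their time courses differed. Each window runs from 250 bases before to 50 bases after the start site of the RefSeq annotation of GRCm38.p6, the assembly of mm10, and is written 5′ to 3′ on the gene's own strand. Capitals mark every match to 5 motifs searched on both strands: the CRE core TGACGT, the CArG box, the AP-1 site TGANTCA, the ETS site CCGGAA and the TATA box TATAAA. The windows lie at chr17:26508423-26508722 on the minus strand for Dusp1, chr19:53528895-53529194 on the plus strand for Dusp5 and chr10:99262981-99263280 on the plus strand for Dusp6.
Dusp1: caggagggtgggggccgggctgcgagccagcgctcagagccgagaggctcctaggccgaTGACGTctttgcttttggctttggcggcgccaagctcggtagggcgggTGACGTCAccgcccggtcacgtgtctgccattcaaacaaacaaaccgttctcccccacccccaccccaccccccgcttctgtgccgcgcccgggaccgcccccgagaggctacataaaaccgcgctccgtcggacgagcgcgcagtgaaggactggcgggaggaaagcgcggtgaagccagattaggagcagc
Dusp5: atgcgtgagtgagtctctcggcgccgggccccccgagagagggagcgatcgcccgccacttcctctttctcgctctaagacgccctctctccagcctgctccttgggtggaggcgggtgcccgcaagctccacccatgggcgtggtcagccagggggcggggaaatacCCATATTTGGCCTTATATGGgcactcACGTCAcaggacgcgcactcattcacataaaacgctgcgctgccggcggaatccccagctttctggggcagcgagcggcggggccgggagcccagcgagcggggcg
Dusp6: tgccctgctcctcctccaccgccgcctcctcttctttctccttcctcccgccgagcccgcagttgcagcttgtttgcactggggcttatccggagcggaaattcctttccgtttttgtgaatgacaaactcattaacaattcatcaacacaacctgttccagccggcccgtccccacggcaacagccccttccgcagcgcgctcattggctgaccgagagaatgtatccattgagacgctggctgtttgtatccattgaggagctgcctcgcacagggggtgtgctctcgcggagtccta
The Dusp1 window held 3 CRE cores, which began 191, 143 and 141 bases before the start site, and the last 2 of these overlap on opposite strands. In the Dusp5 window 2 adjoining CArG boxes, the element of serum response factor, began 82 and 72 bases before the start site, and a CRE core began at 56 bases. That window ends before the Dusp5 locus quantified by the authors, which starts at chr19:53529318. No motif of the 5 was found in the Dusp6 window. Over all 32851 RefSeq windows of 300 bases, 7.51% held a CRE core, 1.63% a CArG box, 7.81% an AP-1 site, 14.9% an ETS site and 13.6% the TATA letters. These shares are not matched for base composition. G and C made up 67% of the Dusp1, 66.7% of the Dusp5 and 57.3% of the Dusp6 window, beside a median of 52.7% over all windows. These matches describe letters, and binding was not measured.

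The Sprouty and Spred genes parted from each other at 48 h. Spry2 was called higher at both times, while Spry1, Spred1 and Spred2 were called lower at 48 h, and of these Spred1 was called lower at 24 h too. The median difference of the 4 was -0.08 at 24 h and -1.05 at 48 h.

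Spry1 encodes a Sprouty inhibitor of receptor tyrosine kinase signalling and was low in all groups. It had 1.68 FPKM in floxed cells and 1.40 FPKM in wild type cells at 24 h (q = 0.394 in the authors' deposited table). By 48 h Spry1 stood at 0.575 FPKM in floxed cells against 2.01 FPKM in wild type cells, 28.6% of the wild type level (log2 difference -0.93, q = 0.000165 in the authors' deposited table). The floxed 48 h group was the lowest of the 4.

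Spry2, its closest relative here, was the more abundant Sprouty gene in every group. It had 14.2 FPKM in floxed cells against 10.6 FPKM in wild type cells at 24 h, a fold of 1.34 (q = 0.0268 in the authors' deposited table). The later values were 16.1 FPKM in floxed cells against 11.5 FPKM in wild type cells at 48 h, a fold of 1.41 (q = 0.0153 in the authors' deposited table). Both floxed groups lay above both wild type groups, by a small step that changed by only 0.07 on the log2 scale between the times.

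Spred1, which brings the Ras GTPase activating protein neurofibromin to the membrane, had the widest difference of the 10 genes at 48 h on the log2(FPKM + 1) scale, while Dusp1 had the larger fold. It had 10.3 FPKM in floxed cells against 14.1 FPKM in wild type cells at 24 h, a 1.37-fold lower level (q = 0.0103 in the authors' deposited table). By 48 h Spred1 stood at 3.28 FPKM in floxed cells against 15.5 FPKM in wild type cells, 4.73-fold lower (log2 difference -1.95, q = 0.000165 in the authors' deposited table). Spred1 was the highest of the 10 genes in wild type cells at both times and ranked 7 of 10 in floxed cells at 48 h. Of all expressed genes, 0.636% had a lower difference at 48 h.

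Spred2, the related inhibitor of RAF activation by Ras, followed at a smaller size. It had 8.48 FPKM in floxed cells and 10.7 FPKM in wild type cells at 24 h, which did not pass (q = 0.0789 in the authors' deposited table). At 48 h it had 4.91 FPKM in floxed cells against 12.2 FPKM in wild type cells, 2.48-fold lower (log2 difference -1.16, q = 0.000165 in the authors' deposited table). Both floxed groups were below both wild type groups for Spred1 and for Spred2. Summed, the 2 Spred genes came to 18.8 FPKM in floxed cells against 24.8 FPKM in wild type cells at 24 h, and to 8.19 FPKM in floxed cells against 27.7 FPKM in wild type cells at 48 h. The Spred sum in floxed cells was thus 75.7% of that in wild type cells at 24 h and 29.5% at 48 h. The 2 Sprouty genes summed to 15.8 FPKM in floxed cells against 12.0 FPKM in wild type cells at 24 h and to 16.7 FPKM in floxed cells against 13.5 FPKM in wild type cells at 48 h.

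The promoters of the 2 Spred genes are given because both fell at 48 h. They lie at chr2:117120821-117121120 for Spred1 and chr11:19924192-19924491 for Spred2, each on the plus strand of GRCm38.p6 in RefSeq, with capitals as above.
Spred1: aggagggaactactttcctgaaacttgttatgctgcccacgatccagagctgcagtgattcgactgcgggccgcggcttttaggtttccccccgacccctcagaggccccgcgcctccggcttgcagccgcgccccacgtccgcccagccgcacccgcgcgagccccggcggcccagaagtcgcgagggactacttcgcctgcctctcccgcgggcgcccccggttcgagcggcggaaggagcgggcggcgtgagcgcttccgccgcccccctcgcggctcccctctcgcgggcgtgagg
Spred2: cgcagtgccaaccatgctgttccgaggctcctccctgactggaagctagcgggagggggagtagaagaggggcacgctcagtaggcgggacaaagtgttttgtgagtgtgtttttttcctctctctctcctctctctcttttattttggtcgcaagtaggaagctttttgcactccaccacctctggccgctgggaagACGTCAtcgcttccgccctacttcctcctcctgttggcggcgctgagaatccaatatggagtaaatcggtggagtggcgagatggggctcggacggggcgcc
The Spred2 window held 1 CRE core, 52 bases before the start site, and none of the 5 motifs was found in the Spred1 window. That Spred1 window holds no base of the locus quantified by the authors, which starts further on, at chr2:117121450. The sequence around the start of the quantified locus was not searched. Among the other members with a RefSeq window, Spry2 had 1 ETS site, 33 bases after its start site, and Dusp2, Spry1 and both start sites of Etv5 had no match. In all, 3 of the 9 members with a window held a CRE core, 1 of 9 a CArG box, 1 of 9 an ETS site, and 0 of 9 an AP-1 site or the TATA letters. G and C made up 57% to 74% of the members' windows, above the median of 52.7% over all RefSeq windows. An excess over the shares of all windows was therefore not tested. A CRE core was thus found in Dusp1 and Dusp5, which were higher at 48 h, and in Spred2, which was lower.

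**Figure D2:**
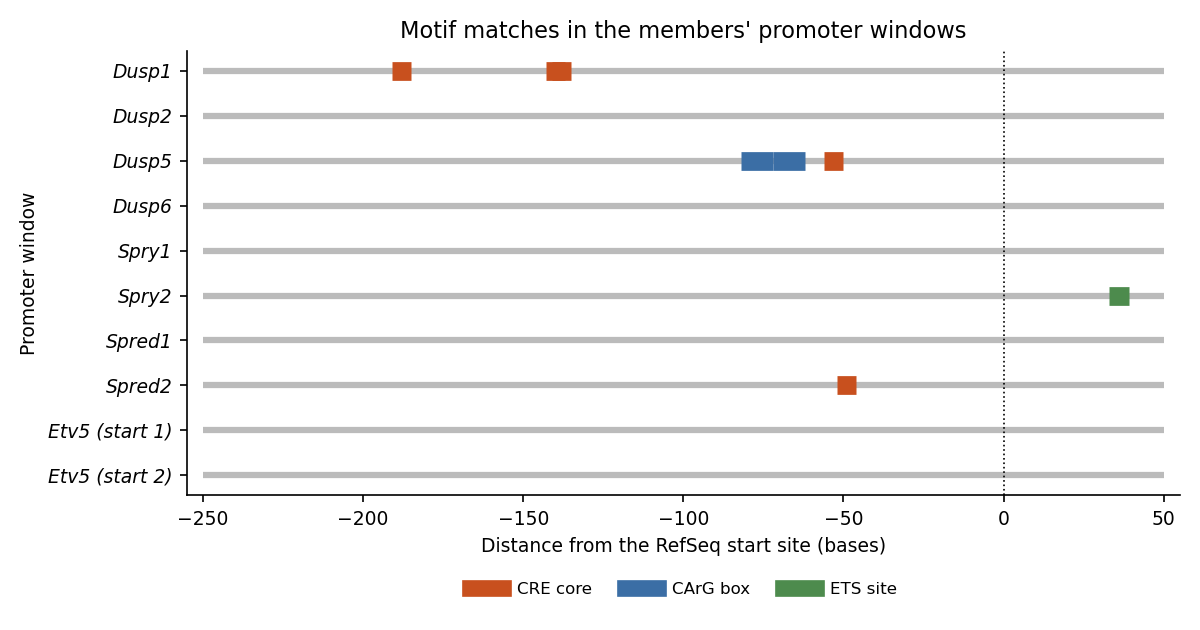
Motif matches in the promoter windows of the 9 members with a RefSeq entry; the x axis is the distance in bases from the start site (dotted line), and coloured blocks are matches to the CRE core, the CArG box and the ETS site. Matches are seen in Dusp1, Dusp5, Spry2 and Spred2, and the other windows are empty.

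The ETV factors were the lowest group in level, and both were called lower at 48 h. Etv4 and Etv5 are ETS factors of the PEA3 subfamily, used as output markers of fibroblast growth factor and ERK signalling. Etv4 had 0.675 FPKM in floxed cells against 1.21 FPKM in wild type cells at 24 h, 55.6% of the wild type level (q = 0.00705 in the authors' deposited table). At 48 h it had 0.252 FPKM in floxed cells against 1.26 FPKM in wild type cells, 20.0% of the wild type level (log2 difference -0.85, q = 0.000165 in the authors' deposited table). Both floxed values were under 1 FPKM and both wild type values just above it.

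Etv5 turned its direction between the times. It had 4.00 FPKM in floxed cells against 3.02 FPKM in wild type cells at 24 h, a fold of 1.33 (q = 0.0497 in the authors' deposited table, close to the threshold). At 48 h it had 1.60 FPKM in floxed cells against 3.38 FPKM in wild type cells, 2.11-fold lower (q = 0.000165 in the authors' deposited table). Floxed cells thus held the highest Etv5 value at 24 h and the lowest at 48 h, with wild type cells between. It made up most of the summed Etv4 and Etv5 level in each group: 85.6% in floxed cells and 71.3% in wild type cells at 24 h, and 86.4% in floxed cells and 72.8% in wild type cells at 48 h.

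**Figure D3:**
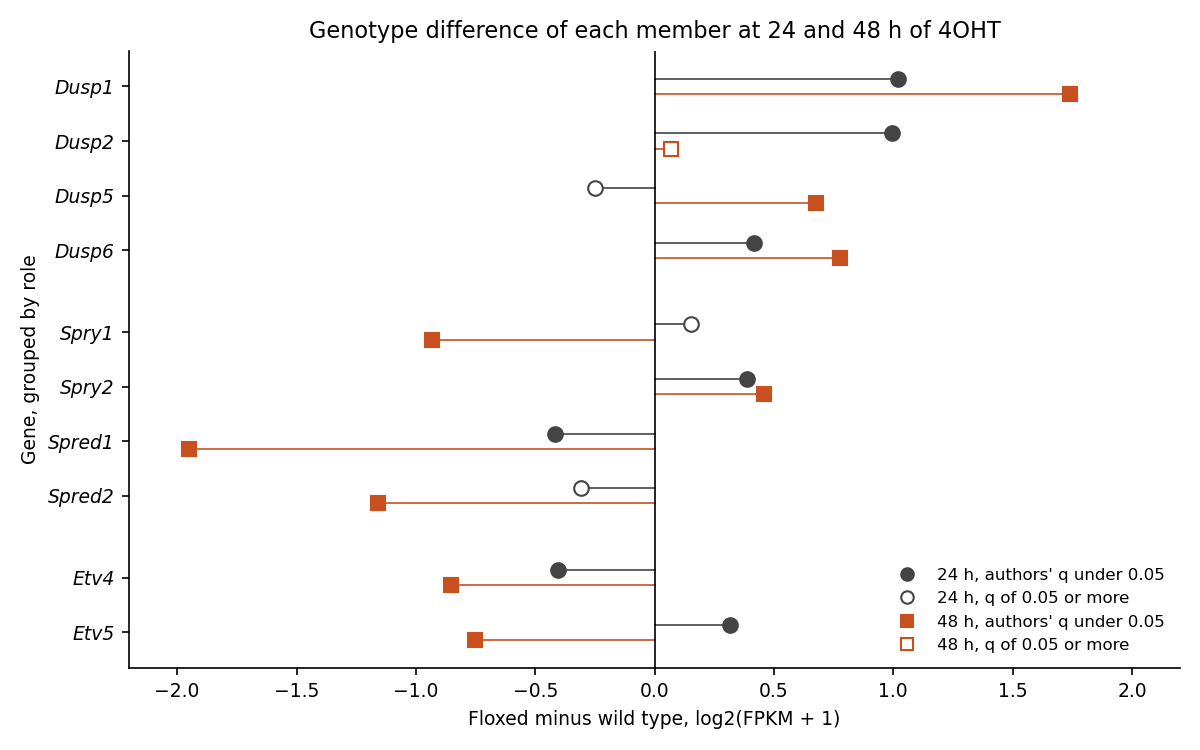
Difference of floxed minus wild type cells for each gene on the log2(FPKM + 1) scale, at 24 h (grey circles) and 48 h (orange squares), with filled symbols where the authors' q was under 0.05. Dusp1 extends furthest to the right at 48 h (1.74) and Spred1 furthest to the left (-1.95), and Etv5 lies right of 0 at 24 h and left of it at 48 h.

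Summed by role, the phosphatases came to 23.2 FPKM in floxed cells against 15.6 FPKM in wild type cells at 24 h and to 30.0 FPKM in floxed cells against 16.0 FPKM in wild type cells at 48 h. The Sprouty and Spred genes came to 34.6 FPKM in floxed cells against 36.8 FPKM in wild type cells at 24 h and to 24.9 FPKM in floxed cells against 41.2 FPKM in wild type cells at 48 h. At 48 h the phosphatase sum was thus 1.87 times, and the Sprouty and Spred sum 0.604 times, that of wild type cells. The Etv4 and Etv5 sum came to 4.68 FPKM in floxed cells against 4.23 FPKM in wild type cells at 24 h and to 1.85 FPKM in floxed cells against 4.64 FPKM in wild type cells at 48 h. The makeup of the Sprouty and Spred sum changed with its size: Spry2 held 64.8% of it in floxed cells and 27.9% in wild type cells at 48 h, while Spred1 held 13.2% in floxed cells and 37.7% in wild type cells. Dusp2 held 34.7% of the phosphatase sum in floxed cells and 22.7% in wild type cells at 24 h, and 12.6% in floxed cells and 22.3% in wild type cells at 48 h.

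**Figure D4:**
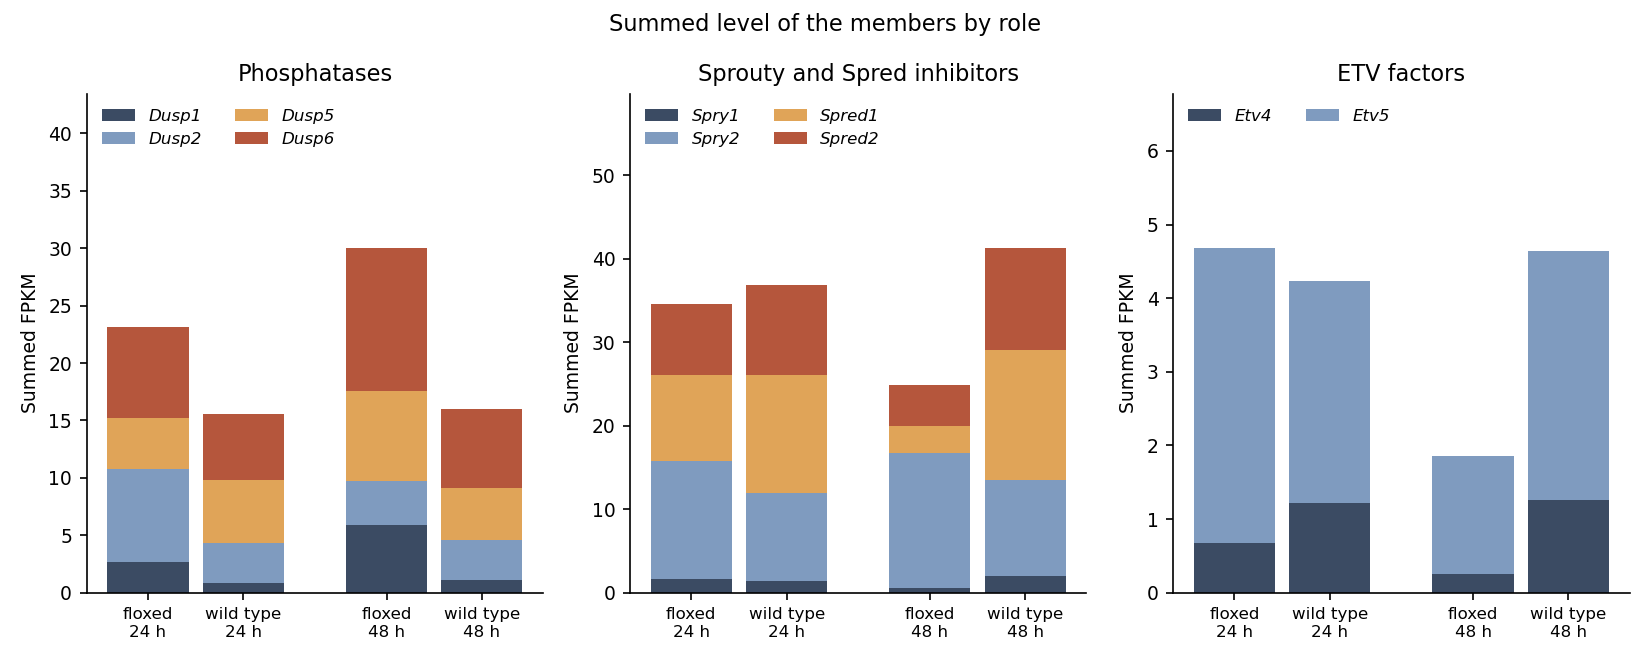
Summed FPKM of the phosphatases, the Sprouty and Spred inhibitors and the ETV factors in each group, with colours for the genes; each segment is the authors' single value for a group of 2 libraries. At 48 h the floxed bar is above the wild type bar for the phosphatases (30.0 against 16.0 FPKM) and below it for the other roles (24.9 against 41.2 FPKM and 1.85 against 4.64 FPKM).

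Taking the 2 times together, 5 of the 10 genes were called at both times in the same direction, beside 21.4% of the genes tested at both times: Dusp1, Dusp6 and Spry2 higher, and Spred1 and Etv4 lower. Etv5 alone was called in opposite directions, beside 1.24% of genes. Dusp5, Spry1 and Spred2 were called at 48 h only, and Dusp2 at 24 h only. The difference at 48 h minus that at 24 h ranged from -1.53 for Spred1 to 0.93 for Dusp5, and its size was 1 or more for Spred1, Spry1 and Etv5, 3 of the 10 genes (30%), beside 8.3% of all expressed genes. With a single value per group this change of the genotype difference was not tested.

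The lines differed in how steady these genes were in time. In floxed cells, 7 of the 10 differed at least 1.5-fold between 48 and 24 h on the log2(FPKM + 1) scale, beside 23.3% of expressed genes. Dusp1 and Dusp5 were higher at 48 h, and Dusp2, Spry1, Spred1, Spred2 and Etv5 were lower. In wild type cells 0 of the 10 did, beside 2.01% of expressed genes, and the values lay between -0.23 and 0.32. The floxed ratio of 48 to 24 h was 2.19 for Dusp1, 1.77 for Dusp5, 0.469 for Dusp2, 0.40 for Etv5 and 0.319 for Spred1. Dusp6, with a ratio of 1.56, came just short on the log2(FPKM + 1) scale (0.58), and Spry2 stayed at 1.14. In wild type cells the ratios were 1.01 for Dusp2, 0.828 for Dusp5, 1.19 for Dusp6, 1.08 for Spry2, 1.10 for Spred1, 1.14 for Spred2 and 1.12 for Etv5. Spry1 had the largest wild type ratio, 1.43, and the floxed value of Spry1 ran the other way over the same interval. The authors' q-values do not cover this contrast, and the FPKM of the 2 times may have been scaled separately, so these are values without a call.

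The order of the 10 levels, which FPKM allows since it is per length, was the same in wild type cells at both times: Spred1, Spred2, Spry2, Dusp6, Dusp5, Dusp2, Etv5, Spry1, Etv4, Dusp1. In floxed cells at 24 h it was Spry2, Spred1, Spred2, Dusp2, Dusp6, Dusp5, Etv5, Dusp1, Spry1, Etv4. In floxed cells at 48 h the order was Spry2, Dusp6, Dusp5, Dusp1, Spred2, Dusp2, Spred1, Etv5, Spry1, Etv4. In wild type cells the Spred genes led, and in floxed cells at 48 h Spry2 and 3 phosphatases stood above both of them. Set among all expressed genes, the 10 lay in the lower to middle range. At 48 h Dusp1 lay above 32.2% of expressed genes in floxed cells and above 8.27% in wild type cells. Dusp6 lay above 49.7% in floxed cells and above 34.0% in wild type cells. Spred1 moved the other way, above 20.6% of expressed genes in floxed cells and above 54.1% in wild type cells, and Spred2 above 28.3% in floxed cells and above 47.6% in wild type cells. Etv4 lay above only 0.995% of expressed genes in floxed cells and above 9.74% in wild type cells, near the bottom in both lines. Which neighbours in these orders differ beyond their spread could not be judged without a value per library.

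The rest of the pathway was read from 9 lists of 79 genes chosen by role, of which 64 were expressed. At 24 h, 11 were called higher and 13 lower of 67 tested (35.8%), with a median difference of 0.03. At 48 h, 23 were higher and 15 lower of 68 tested (55.9%), with a median of 0.11. Over the 64 expressed genes alone, all of them tested, 34.4% were called at 24 h and 54.7% at 48 h, beside 27.6% and 56.8% over all tested expressed genes.

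Upstream of the 10 genes, the 8 receptors had 2 higher and 2 lower calls at 24 h, and 3 higher and 2 lower at 48 h. Csf2rb, the common beta chain, had 64.6 FPKM in floxed cells against 45.1 FPKM in wild type cells at 24 h and 110 FPKM in floxed cells against 41.1 FPKM in wild type cells at 48 h. Its mouse paralogue Csf2rb2, which pairs with the interleukin 3 receptor alone, had 19.6 FPKM in floxed cells against 5.48 FPKM in wild type cells at 48 h, and reads of these closely similar genes may be split uncertainly. Kit, the stem cell factor receptor, was lower, with 11.8 FPKM in floxed cells against 17.9 FPKM in wild type cells at 24 h and 5.42 FPKM in floxed cells against 17.1 FPKM in wild type cells at 48 h. Flt3 was listed under 0.5 FPKM in every group. These receptor calls came in both directions, as did those of the 10 genes.

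Of the 15 adaptors, exchange factors and Ras proteins, 13 were tested. Gab2 alone was called at 24 h, at 6.37 FPKM in floxed cells against 8.67 FPKM in wild type cells, and at 48 h 3 were higher and 2 lower. Shc1, an adaptor of the activated receptor, had 130 FPKM in floxed cells against 49.98 FPKM in wild type cells at 48 h, a fold of 2.61. Rasgrp4, a Ras exchange factor of myeloid cells, had 5.04 FPKM in floxed cells against 2.45 FPKM in wild type cells at 48 h, and Rasgrp2 43.9 FPKM in floxed cells against 62.1 FPKM in wild type cells. Among the 8 Ras GTPase activating genes 7 were tested, with 2 higher and 1 lower at 24 h and 1 higher and 2 lower at 48 h. At 24 h Rasa4 was lower (2.12 FPKM in floxed cells against 3.67 FPKM in wild type cells) and Rasal2 higher (0.464 FPKM in floxed cells against 0.275 FPKM in wild type cells). Rasal3 was higher at both times, with 10.5 FPKM in floxed cells against 5.81 FPKM in wild type cells at 24 h and 10.2 FPKM in floxed cells against 5.82 FPKM in wild type cells at 48 h. Rasa2 had 6.86 FPKM in floxed cells against 14.4 FPKM in wild type cells at 48 h and Rasa3 25.8 FPKM in floxed cells against 38.1 FPKM in wild type cells. Both were called lower, beside 31.0% of all tested expressed genes at 48 h. Nf1, which encodes neurofibromin, was not called at 48 h, with 2.75 FPKM in floxed cells against 2.70 FPKM in wild type cells. Rasa1, Rasa4 and Rasal2 were not called at 48 h either.

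Of the 12 genes of RAF, MEK and ERK kinases and their scaffolds, 11 were tested, and only Ksr1 was called at 24 h (lower, 1.01 FPKM in floxed cells against 1.41 FPKM in wild type cells). At 48 h 3 were higher and 0 lower. Mapk3, which encodes ERK1, had 175 FPKM in floxed cells against 80.5 FPKM in wild type cells. The scaffold Iqgap1 had 97.7 FPKM in floxed cells against 64.8 FPKM in wild type cells. Below ERK, 2 of 7 kinase genes were higher and 1 lower at 24 h, and 2 higher and 2 lower at 48 h. Mknk2, a kinase of the initiation factor eIF4E, had 171 FPKM in floxed cells against 72.2 FPKM in wild type cells at 24 h and 181 FPKM in floxed cells against 77.5 FPKM in wild type cells at 48 h. Rps6ka3 was higher at 24 h (27.1 FPKM in floxed cells against 17.5 FPKM in wild type cells) and Mknk1 at 48 h (29.1 FPKM in floxed cells against 15.5 FPKM in wild type cells). Rps6ka2, which encodes the ribosomal S6 kinase RSK3, had 0.815 FPKM in floxed cells against 3.83 FPKM in wild type cells at 24 h and 0.672 FPKM in floxed cells against 3.90 FPKM in wild type cells at 48 h.

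The relatives of the 10 genes did not all follow them. Of the 6 other MAP kinase phosphatases 4 were tested. Dusp7, a cytoplasmic ERK phosphatase related to Dusp6, was lower at both times where Dusp6 was higher, with 10.6 FPKM in floxed cells against 14.6 FPKM in wild type cells at 24 h and 7.78 FPKM in floxed cells against 12.7 FPKM in wild type cells at 48 h. Dusp9, another relative of Dusp6, was lower too, at 1.77 FPKM in floxed cells against 2.64 FPKM in wild type cells at 24 h and 1.18 FPKM in floxed cells against 2.2 FPKM in wild type cells at 48 h. Dusp16, a phosphatase of JNK and p38, was lower at 24 h (0.414 FPKM in floxed cells against 0.681 FPKM in wild type cells) and higher at 48 h (1.06 FPKM in floxed cells against 0.612 FPKM in wild type cells). None of the 3 other Sprouty and Spred genes reached 1 FPKM, and Spred3 was called higher at 48 h at 0.381 FPKM in floxed cells against 0.131 FPKM in wild type cells. The Spry1, Spry2, Spred1 and Spred2 values thus cover the family members expressed in these cells.

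Of the 9 other ETS factors linked to ERK, 2 were higher and 4 lower at 24 h, and 4 higher and 4 lower at 48 h. Etv1, the remaining PEA3 factor, had 2.86 FPKM in floxed cells against 0.634 FPKM in wild type cells at 48 h and was called higher, where Etv4 and Etv5 were lower. Elk3 had 5.18 FPKM in floxed cells against 9.11 FPKM in wild type cells at 24 h and 4.60 FPKM in floxed cells against 9.53 FPKM in wild type cells at 48 h. Elk4, like Elk3 a partner of serum response factor, was higher at both times, with 5.82 FPKM in floxed cells against 3.07 FPKM in wild type cells at 48 h. Elk1, the third of these partners, was lower at both times, with 2.98 FPKM in floxed cells against 4.92 FPKM in wild type cells at 24 h and 3.39 FPKM in floxed cells against 5.23 FPKM in wild type cells at 48 h.

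Of 11 other genes used as readouts of MEK and ERK output in human cell lines, 8 were tested, and 3 were higher and 0 lower at 24 h. At 48 h 5 were higher and only Myc was lower. Phlda1 had 3.38 FPKM in floxed cells against 1.03 FPKM in wild type cells at 24 h and 14.4 FPKM in floxed cells against 0.821 FPKM in wild type cells at 48 h. Emp1 had 6.31 FPKM in floxed cells against 0.25 FPKM in wild type cells at 48 h, and Ier3 43.9 FPKM in floxed cells against 9.10 FPKM in wild type cells. Egr1, an immediate early gene with serum response elements, had 3.19 FPKM in floxed cells against 0.172 FPKM in wild type cells at 24 h and 2.09 FPKM in floxed cells against 0.106 FPKM in wild type cells at 48 h. The 8 expressed readouts had a median difference of 0.29 at 24 h and 1.01 at 48 h, beside 0.71 and 0.73 for the 4 phosphatases. The medians of Spry1, Spry2, Spred1 and Spred2 were -0.08 and -1.05 and those of Etv4 and Etv5 -0.04 and -0.80.

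**Figure D5:**
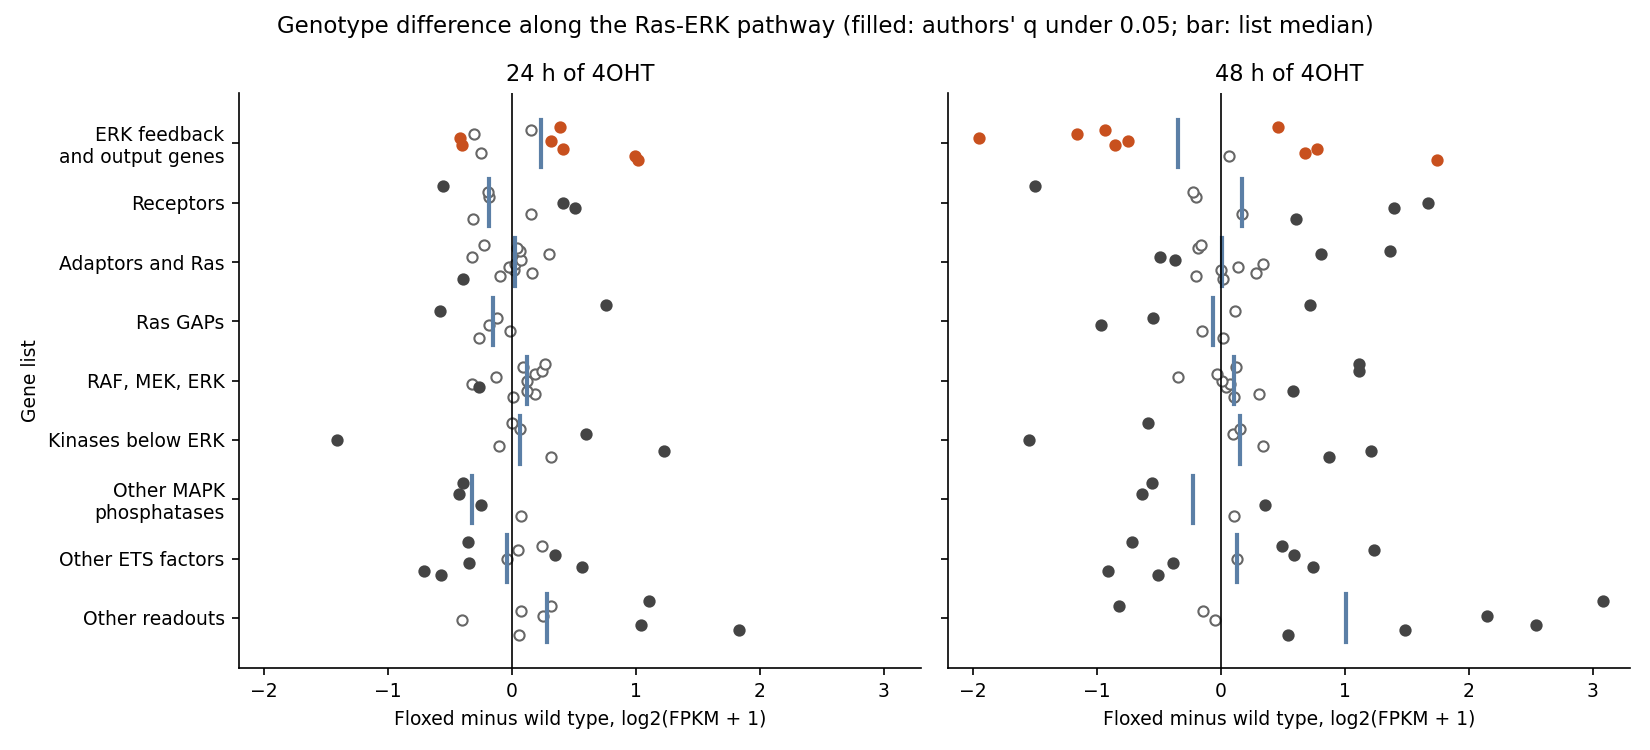
Difference of floxed minus wild type cells on the log2(FPKM + 1) scale for the expressed genes of each list, at 24 h (left) and 48 h (right); each point is a gene, filled where the authors' q was under 0.05, orange for the 10 feedback and output genes, and the blue bar is the list's median. At 48 h the 10 genes lie on both sides of 0 with a median of -0.34, a sign that turns to 0.46 without Spry1, Etv4 and Etv5, the genes under 5 FPKM; the other readouts have a median of 1.01.

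Markers of maturing myeloid cells moved in the same comparison. The 10 granulocyte markers found in the table had 5 higher and 2 lower calls at 24 h, with a summed level of 7970 FPKM in floxed cells and 8925 FPKM in wild type cells. At 48 h all 10 were higher, with 24833 FPKM in floxed cells against 6728 FPKM in wild type cells. S100a8 and S100a9 made up most of the granulocyte sum in each group. At 24 h S100a9 had 1166 FPKM in floxed cells against 2574 FPKM in wild type cells. Of the 10 monocyte and macrophage markers 1 was higher and 4 lower at 24 h, and 8 were higher and 1 lower at 48 h, with sums of 3251 FPKM in floxed cells against 3283 FPKM in wild type cells at 24 h and 6633 FPKM in floxed cells against 2614 FPKM in wild type cells at 48 h. Ly6c2 and Lyz2 made up most of the monocyte and macrophage sum in each group. The part of the shift in these myeloid markers in the values of the 10 genes was not tested. The markers of erythroid and stromal cells were near 0 (sums of at most 0.651 and 0.0946 FPKM). Lymphocyte markers summed to 8.51 FPKM in floxed cells against 0.968 FPKM in wild type cells at 24 h, nearly all from Cd79b, while Pax5 and Cd3e were listed at 0 in all groups. The megakaryocyte markers summed to 14.2 FPKM in floxed cells against 1.91 FPKM in wild type cells at 48 h. Most came from Pf4, at 10.8 FPKM in floxed cells against 0.977 FPKM in wild type cells. Of the 4 megakaryocyte markers tested at 48 h, 3 were called higher and 1 lower. The lower one was Gp9, with 0.235 FPKM in floxed cells against 0.744 FPKM in wild type cells.

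For the 7 members that reached 5 FPKM in some group, the genes of most similar pattern were sought by the distance between the 4 log2(FPKM + 1) values, each centred on its mean. With 4 points per gene, many genes came close to the flatter patterns. A distance of under 0.25 was met by 1201 genes for Spry2, 658 for Spred2, 422 for Dusp6 and 326 for Dusp5. It was met by only 36 genes for Dusp1, 19 for Dusp2 and 10 for Spred1, whose patterns were steeper. The nearest genes were Snord104, Itsn1 and Mapk4 for Dusp1, Mnd1, Snord15a and Mansc1 for Dusp2, and Slco3a1, Pck2 and Impdh1 for Spred1, with the closest at distances of 0.023, 0.041 and 0.10. For Dusp5 they were Mocs1, Gdpd3 and Tnfaip3, for Dusp6 Gimap6, Nfkb2 and Grtp1, for Spry2 Ngrn, Suox and Tlr4, and for Spred2 Ufl1 and Lmf1. Small nucleolar RNAs are poorly measured by poly(A) libraries.

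In the coordinates of the table (mm10), all 10 genes are protein coding and none shared its locus entry with another gene. They lie apart, on chromosome 17 (Dusp1, chr17:26505591-26508472), 2 (Dusp2, chr2:127336159-127338377 and Spred1, chr2:117121450-117179336), 19 (Dusp5, chr19:53529318-53541322), 10 (Dusp6, chr10:99263231-99267489), 3 (Spry1, chr3:37639950-37644599), 14 (Spry2, chr14:105891947-105896819), 11 (Spred2, chr11:19924442-20022597 and Etv4, chr11:101769742-101785310) and 16 (Etv5, chr16:22381313-22439570). Dusp1, Dusp5 and Spry1 have exon overlap with a gene on the opposite strand in the GENCODE annotation of that assembly: Dusp1 with Ergic1 over 11 bases, Dusp5 with AC137853.2 over 547 bases and Spry1 with Gm42922 over 710 bases. Whether these bases lie within the quantified loci was not checked. The GENCODE gene of Dusp1 runs to 26562128, far past the end of its quantified locus. The sources used here do not give strandedness, so reads within these stretches cannot be assigned to a strand. Ergic1 ran against Dusp1 at 48 h, with 31.2 FPKM in floxed cells and 66.1 FPKM in wild type cells. AC137853.2 and Gm42922 have no row in the table.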

How the data were processed

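Poly(A) RNA of 8 libraries in 4 groups of 2 biological duplicates was sequenced on an Illumina HiSeq, per the labels' protocols. The submitters' processing notes name Bowtie2, Cufflinks 2.1, Cuffdiff and the build mm10, with no role or order; the sources used here give no strandedness, trimming or annotation. The authors' deposited table gives 1 FPKM per gene and group, duplicates combined, and the authors' q-value for each time. FPKM is relative to all other RNA and does not show a change of total RNA per cell. The deposited fold columns were not used.

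Computed here with Python 3.11.15, numpy 2.4.6 and pandas 2.3.3 were ratios of FPKM, differences on the log2(FPKM + 1) scale, sums, counts of the authors' q under 0.05, and motif matches in RefSeq promoters. The log2 differences, the counts of calls and the distance between patterns were tested on simulated data. The motif search, the sums and the ratios were not. Of the 23361 rows, 27 with names turned into dates could be matched to no gene. A gene counted as tested where its q was under 1. With 1 value per group no model was fitted. The authors' q-values rest on duplicates of established lines, so they do not cover the spread between separately made lines.

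The 10 genes, the pathway lists and the marker lists were chosen with earlier results of these data known. Every one of the 10 is named. Of each list, up to 3 called genes of the largest log2 difference at each time are named, except some not reported here, and Myc and Ergic1 were named after their values were seen. Older symbols were matched through the RefSeq table (Hras as Hras1, Spi1 as Sfpi1, Adgre1 as Emr1), and Ly6g was not matched. Promoters were found for 9 of the 10 genes, not for Etv4. Alternatives were another threshold on q, a minimum fold, other pseudocounts, 2 rescalings and other filters on level.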

Additional observations from a re-analysis of the deposited data

Results flagged for a closer look

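Etv5 was called in opposite directions at the 2 times, and this is what singled it out. It had 4.00 FPKM in floxed cells against 3.02 FPKM in wild type cells at 24 h, and 1.60 FPKM in floxed cells against 3.38 FPKM in wild type cells at 48 h. The genotype difference at 48 h minus that at 24 h came to -1.07 on the log2(FPKM + 1) scale. The difference between the times was not tested, since the table holds 1 value per group, and the q of 0.0497 at 24 h in the authors' deposited table lies close to the threshold of 0.05. Of the genes tested at both times, 136 of 10960 (1.24%) were called in opposite directions.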

How the results depend on the processing

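Of 7 genes called at 24 h, 3 were left with a q under 0.01 and 3 with at least 1.5-fold apart in FPKM, and of 9 called at 48 h, 8 were left under each. The median difference at 24 h was 0.24, against 0.11 with a pseudocount of 5 and 0.39 with only genes of at least 5 FPKM. At 48 h it was -0.34, against -0.48 with a pseudocount of 0.1, -0.11 with a pseudocount of 5 and 0.46 with genes of at least 5 FPKM. The last turns the sign because it keeps 7 genes and leaves out Spry1, Etv4 and Etv5, all lower in floxed cells at 48 h. Of 80 values of single genes under 4 other settings, 79 kept their direction, and Dusp2 at 48 h, which was not called, came to -0.0098 with the groups rescaled to the same sum of FPKM. No paired analysis was possible because the table holds 1 value per group, and for the same reason no replicate could be left out. Depth per library is unknown, so the limits it sets on the low values of Etv4, Spry1 and wild type Dusp1 cannot be given.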
